A study of Homo sapiens with 9 samples.

Results

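U3, U8 and U13 are small nucleolar RNAs that work on ribosomal RNA (rRNA) and are made from genes of their own. The members were all array probes whose annotated gene is SNORD3A, SNORD3C or SNORD3D (U3), SNORD13 (U13) or SNORD118 (U8). Of these 5 genes, 4 had a probe, with 4 probes in all among 47323 on the array, and all 4 were among the 11428 genes tested. No probe was listed for SNORD118, so U8 was not analysed here. The members were chosen by measured values, namely that several of them rise against control in both knockdowns, so their difference from control is given as a description without a test.

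Gene expression was measured on Illumina bead arrays in PC3, a cell line of human prostate cancer, 48 h after transfection with 50 nM siRNA. One group of 3 samples received a pool of siRNAs against MELK, a protein kinase of dividing cells. Another group of 3 received a pool against UBE2C, which hands ubiquitin to the substrates of the anaphase-promoting complex in mitosis. A further 3 samples received the All Stars negative control siRNA. All 9 samples came from the same line and were transfected with the same reagent, and the labels name no allele or further agent. Both pools were bought from one supplier and the control siRNA from another, so for a change shared by the knockdowns the targets and the kind of siRNA cannot be told apart. Both knockdowns were set against the same 3 control arrays, so their differences from control are not independent of each other. The labels do not say whether the samples of a group came from separate cultures, so the spread behind the p-values may be technical.

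Most snoRNAs are cut from the introns of host genes, and U3, U8 and U13 are exceptions, transcribed by RNA polymerase II from promoters like those of spliceosomal snRNA genes. U3 base-pairs with the ribosomal precursor and is needed for the early cleavages that release 18S rRNA, within the large assembly called the small subunit processome. U8 is needed for maturation of the rRNAs of the large subunit. U13 pairs with 18S rRNA and guides its acetylation by NAT10. All 3 are box C/D RNAs, bound by the core proteins fibrillarin (FBL), NOP56, NOP58 and SNU13, and U3 also carries RRP9. The RefSeq table of assembly GRCh38.p14 lists the 3 measured U3 genes at 217 bases each on chromosome 17 and SNORD13 at 104 bases on chromosome 8. The U3 genes are near-identical copies, so the probes labelled SNORD3A, SNORD3C and SNORD3D may not tell the copies apart, and they are read as 3 probes for U3.

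The UBE2C siRNA replicate 1 array stood apart from the rest. Over the 19511 probes kept, its correlation with the other arrays was 0.848 to 0.877, whereas the other 8 arrays correlated at 0.981 to 0.99 with each other. Fitted changes below therefore come from the other 8 arrays. Normalization, the filter for detected probes and the choice of a gene's probe still used all 9 arrays. The fitted changes of MELK siRNA against control have the same size over 9 arrays, and for UBE2C siRNA the 9-array value is given beside each named gene. Background was 97.6 to 102 signal units on every array, between 16559 and 18661 probes were above it on an array, and 3 arrays per group limit the precision. The epithelial markers KRT8, KRT19, EPCAM and CDH1 were above background on all 9 arrays, KRT18 on 8. The blood, endothelial and fibroblast markers PTPRC, CD3E, CDH5, VWF and DCN were above background on 0 arrays, whereas PECAM1 was on 9 and LUM and COL1A1 on 6 each. The MELK transcript changed by -1.08 on the log2 scale with MELK siRNA (SE 0.09, limma, adjusted p = 7.80e-06), a fold of 0.472. The UBE2C transcript changed by -1.31 with UBE2C siRNA (SE 0.08, limma, adjusted p = 4.21e-08, -1.32 with 9 arrays). With 9 arrays these adjusted p-values were 0.886 and 0.0286.

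All 4 member probes were above background on all 9 arrays. The values that follow are normalized log2 signals, corrected for background and brought to the same distribution on every array, so that 1 unit is a doubling. In these bulk samples, a change in the make-up of the cell population and a change in the RNA per cell cannot be told apart.

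The probe labelled SNORD3D, for U3, had log2 signals of 9.33, 9.52 and 9.44 with MELK siRNA, 9.61, 9.56 and 9.62 with UBE2C siRNA, and 8.83, 8.58 and 8.50 with control siRNA. Each of the 6 knockdown arrays was above each control array, and the UBE2C siRNA arrays were the highest. As deposited, before correction, the same probe read 786, 874 and 785 signal units with MELK siRNA, 867, 794 and 872 with UBE2C siRNA, and 534, 515 and 420 with control siRNA. The group means on the log2 scale were 9.43 ± 0.09 with MELK siRNA, 9.60 ± 0.03 with UBE2C siRNA and 8.64 ± 0.17 with control siRNA (SD, n = 3 each). The fitted increase over control was 0.79 (SE 0.11), or 1.73-fold, with MELK siRNA. It was 0.96 (SE 0.12), or 1.94-fold, with UBE2C siRNA, and 0.96 with 9 arrays.

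The SNORD3C probe, also for U3, was the dimmest member. Its log2 signals were 6.92, 7.10 and 7.26 with MELK siRNA, 7.64, 7.42 and 7.40 with UBE2C siRNA, and 6.23, 6.32 and 6.34 with control siRNA. On this scale the 3 groups did not overlap, whereas in deposited signal units the MELK siRNA and UBE2C siRNA arrays did. The control arrays read 1.65 to 1.74 times background, so the size of the change depends on how background is removed. The increase was 0.80 (SE 0.15), 1.74-fold, with MELK siRNA and 1.11 (SE 0.17), 2.16-fold, with UBE2C siRNA (1.19 with 9 arrays). In the authors' processed values, which carry no background correction, the changes of this probe were 0.44 with MELK siRNA and 0.64 with UBE2C siRNA.

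The SNORD3A probe, the remaining one for U3, had the widest spread among the control arrays. Its log2 signals were 8.25, 8.36 and 8.34 with MELK siRNA, 8.82, 8.40 and 8.59 with UBE2C siRNA, and 7.54, 8.14 and 7.60 with control siRNA. Control replicate 2 was the high one and lay close below the MELK siRNA arrays, while the other control arrays were well below. In deposited signal units control replicate 2 read 403.9, just above UBE2C siRNA replicate 2 at 403.6, so knockdown and control overlapped there. The increase was 0.56 (SE 0.15), 1.47-fold, with MELK siRNA and 0.74 (SE 0.17), 1.67-fold, with UBE2C siRNA (0.84 with 9 arrays). Leaving out 1 array at a time gave 0.45 to 0.75 for MELK siRNA and 0.63 to 0.93 for UBE2C siRNA, the highest values without control replicate 2.

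U13, read by the SNORD13 probe, was the member that differed most between the knockdowns. Its log2 signals were 9.82, 10.15 and 10.01 with MELK siRNA, 11.04, 10.58 and 10.56 with UBE2C siRNA, and 9.61, 9.40 and 9.31 with control siRNA. The groups did not overlap, and the MELK siRNA arrays lay between the others. In deposited signal units the probe read 1066, 1304 and 1114 with MELK siRNA, 2436, 1518 and 1582 with UBE2C siRNA, and 841, 821 and 655 with control siRNA. The highest value of the probe was on UBE2C siRNA replicate 1, the array that stands apart. The increase was 0.55 (SE 0.11), 1.47-fold, with MELK siRNA and 1.13 (SE 0.12), 2.19-fold, with UBE2C siRNA (1.28 with 9 arrays).

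**Figure D1:**
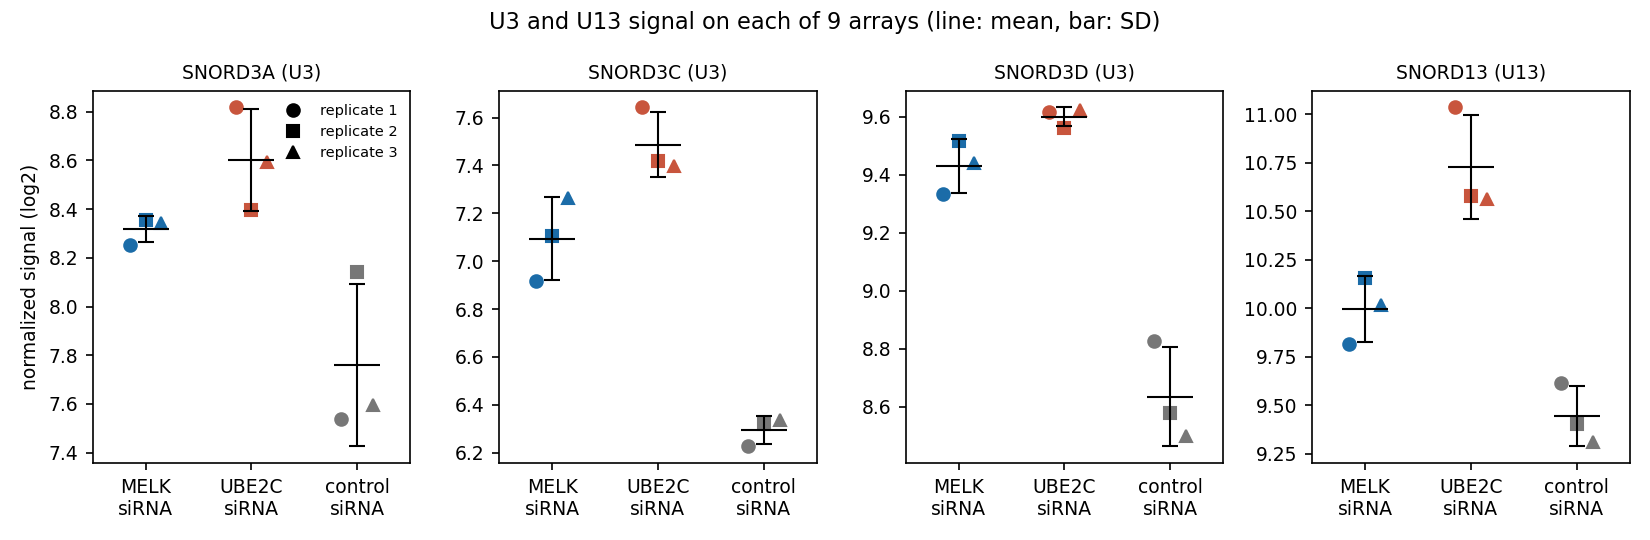
Normalized log2 signal of the 4 member probes on each array, with MELK siRNA, UBE2C siRNA and control siRNA from left to right in each panel; circles, squares and triangles are replicates 1, 2 and 3, the long line is the group mean and the bar its SD (n = 3). For every probe the 6 knockdown arrays lie above the 3 control arrays, with the narrowest margin for SNORD3A, and each panel has its own axis range.

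In the normalized values, every knockdown array was above every control array for 4 of 4 probes, against 809 of all 11428 genes (7.08%). In deposited signal units SNORD3A did not have this pattern. For MELK siRNA alone, 13.8% of all genes had every array above every control array, and for UBE2C siRNA 11.4% over 9 arrays. These shares are the background of an already chosen set and nothing is read from them. Among all 11428 genes ordered by increase, the members ranked 25 (SNORD3C), 27 (SNORD3D), 162 (SNORD3A) and 174 (SNORD13) with MELK siRNA, and 4 (SNORD13), 5 (SNORD3C), 11 (SNORD3D) and 69 (SNORD3A) with UBE2C siRNA. Over 9 arrays the ranks with UBE2C siRNA were 7 for SNORD13, 12 for SNORD3C, 59 for SNORD3D and 137 for SNORD3A. The member median was 0.68 with MELK siRNA and 1.04 with UBE2C siRNA, beside medians over all genes of 0.00 and -0.02. In the authors' processed values the member medians were 0.47 and 0.73.

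**Figure D2:**
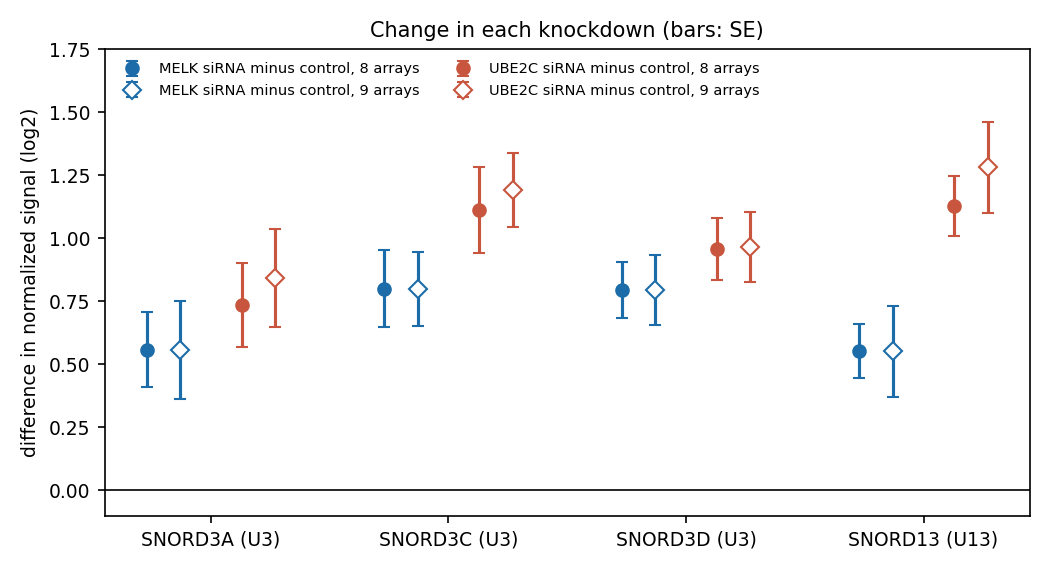
Log2 difference from control of each member for MELK siRNA (blue) and UBE2C siRNA (red), as filled points without UBE2C siRNA replicate 1 and as open diamonds over 9 arrays; bars are SE. The 8-array differences run from 0.55 to 0.80 with MELK siRNA and from 0.74 to 1.13 with UBE2C siRNA.

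The difference between the 2 knockdowns played no part in the choice of the members and was tested. Only 2 of all genes were called in it, 0.0175%, namely MELK and UBE2C themselves, and 0 of the 4 members were called. At an unadjusted p under 0.05 over 8 arrays, limma counted 1 member, SNORD13, and 5.08% of all genes. Over 9 arrays SNORD13 and SNORD3C were under it in limma, beside 2.93% of all genes. The U13 signal differed by -0.58 for MELK siRNA minus UBE2C siRNA (SE 0.12, 95% interval -0.83 to -0.32), with an unadjusted p of 0.000149 and an adjusted p of 0.341 over all genes in limma. Over 9 arrays its difference was -0.73 (limma, adjusted p = 0.802), and across the alternatives the adjusted p lay between 0.151 and 1.00. The 3 U3 probes differed by less, each with limma adjusted p = 0.937. SNORD3A differed by -0.18 (SE 0.17, 95% interval -0.53 to 0.17), SNORD3C by -0.31 (SE 0.17, interval -0.67 to 0.05) and SNORD3D by -0.16 (SE 0.12, interval -0.42 to 0.10). These 8-array intervals leave room for a U3 signal lower with MELK siRNA by 0.42 to 0.67, for no difference, and for one higher by 0.05 to 0.17. Over 9 arrays SNORD3C differed by -0.39 (limma, 95% interval -0.72 to -0.06, adjusted p = 0.802), an interval that leaves out no difference. The 9-array intervals of SNORD3A (-0.73 to 0.16) and SNORD3D (-0.49 to 0.15) include it. In the normalized values of all 4 members, each of the 3 MELK siRNA arrays was below each of the 3 UBE2C siRNA arrays. Over 9 arrays 4.71% of all genes had this pattern. In deposited signal units SNORD13 kept it, whereas the 2 groups overlapped for each of the 3 U3 probes. For SNORD3A, UBE2C siRNA replicate 2 read 403.6, against 414.8 to 445.2 with MELK siRNA. On the normalized values the two-sided exact permutation test gave p = 0.1 for each member, the smallest value that 3 arrays against 3 allow.

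The signals came from total RNA purified on silica columns and amplified with a kit that primes on poly(A) tails. U3 and U13 are short and carry no poly(A) tail in their mature form, so the probes read whatever share of these RNAs passed both steps. The part of these steps in the result was not tested. Other short RNAs without poly(A) tails, read by the same arrays, give values to set beside the members, and 5.51% of all genes were called in either direction with MELK siRNA and 4.46% with UBE2C siRNA. At an unadjusted p under 0.05 the shares of all genes in limma were 22.1% and 22.7% over 8 arrays, and 5.39% and 11.1% over 9, and the unadjusted counts below stand beside these.

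Among 10 spliceosomal RNAs, most of which are made by RNA polymerase II from promoters of the same type (U6-type RNAs are made by RNA polymerase III), 9 had a positive difference from control in each knockdown. Their median was 0.37 with MELK siRNA and 0.53 with UBE2C siRNA, and the number that rose was 0 and 3. The 3 were RNU4-2 (0.73, 0.84 with 9 arrays, limma adjusted p = 0.0314), the minor spliceosome's U6-type RNU6ATAC (0.69, 1.00 with 9 arrays, adjusted p = 0.0369) and the U1 copy RNU1-3 (0.56, 0.81 with 9 arrays, adjusted p = 0.0497), all with UBE2C siRNA. At an unadjusted p under 0.05, limma counted 6 of the 10 with MELK siRNA and 8 with UBE2C siRNA over 8 arrays. Over 9 arrays these counts were 1 and 8.

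A further 10 short structured RNAs were 7SK, 7SL, 4 Y RNAs, the RNase P RNA, the telomerase RNA and 2 vault RNAs. Their median was 0.39 with MELK siRNA and 0.45 with UBE2C siRNA, and 0.21 and 0.22 without background correction. RNY1, a Y RNA bound by the Ro protein, rose in both knockdowns, by 0.61 with MELK siRNA (SE 0.12, limma adjusted p = 0.0103) and by 0.73 with UBE2C siRNA (SE 0.14, adjusted p = 0.0125, 0.95 with 9 arrays). RNY1 had log2 signals of 9.41, 9.42 and 9.35 with MELK siRNA, 10.17, 9.60 and 9.43 with UBE2C siRNA, and 8.90, 8.97 and 8.49 with control siRNA, with no overlap between knockdown and control. RNY4, another Y RNA, rose by 0.69 with MELK siRNA (limma adjusted p = 0.0310) and by 0.82 with UBE2C siRNA (adjusted p = 0.0261, 0.99 with 9 arrays). The vault RNA VTRNA1-1 rose by 0.82 with UBE2C siRNA (limma adjusted p = 0.0201, 1.07 with 9 arrays and 0.49 without background correction).

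Guide snoRNAs cut from introns had smaller medians, but they were also dimmer. The class mean of an array was 5.58 to 5.80 for other box C/D snoRNAs and 5.85 to 6.75 for H/ACA and Cajal body RNAs. For the members it was 7.94 to 9.28. Near background the size of a change depends on how background is removed, so the part of brightness in these medians cannot be told apart. The 40 other box C/D snoRNAs tested, of 172 listed, had medians of 0.09 with MELK siRNA and 0.13 with UBE2C siRNA, and SNORD46 alone rose, by 1.33 with UBE2C siRNA (SE 0.23, limma adjusted p = 0.0119). SNORD46 is a dim probe, and its change was 0.60 without background correction and 1.85 with 9 arrays. Limma counted 3 of the 40 at an unadjusted p under 0.05 with MELK siRNA. The 70 H/ACA and Cajal body RNAs, which guide pseudouridylation or modify snRNAs, had medians of 0.12 and 0.25, and 0.06 and 0.12 without background correction. Of these, SNORA80E and SNORA80A rose in both knockdowns, SNORA80E by 0.81 with MELK siRNA (limma adjusted p = 0.0143) and by 1.13 with UBE2C siRNA (adjusted p = 0.0119, 1.54 with 9 arrays), SNORA80A by 0.54 (adjusted p = 0.0439) and 0.82 (adjusted p = 0.0164, 1.09 with 9 arrays). The SNORA80A call with MELK siRNA was lost whichever 1 of the 8 arrays was left out, and SNORA80E without background correction changed by 0.39 and 0.58. SNORA27 rose by 0.73 with UBE2C siRNA (limma adjusted p = 0.0470, 1.02 with 9 arrays). SNORA23 was also called with UBE2C siRNA (limma adjusted p = 0.0449), but it was above background on 1 of 3 control arrays, and its fitted change of 1.13 was 0.68 without UBE2C siRNA replicate 2, 0.39 without background correction and 1.49 with 9 arrays. The 13 snoRNA host genes had medians of 0.05 and 0.06, and 0 were called, with 3 at an unadjusted p under 0.05 in limma in each knockdown. Histone mRNAs of the replication-dependent kind, which end in a stem-loop in place of a poly(A) tail, had medians of 0.17 and 0.18 over 38 genes, and H4C14 rose by 0.53 with MELK siRNA (limma adjusted p = 0.0309).

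The mean of each class over its genes, taken relative to the control mean, shows the array-by-array picture. For the 4 members it was 0.55 to 0.75 on the MELK siRNA arrays, 0.96 to 1.24 on the UBE2C siRNA arrays and -0.10 to 0.08 on the control arrays. For the spliceosomal RNAs it was 0.24 to 0.32, 0.43 to 1.15 and -0.23 to 0.13 in the same order of groups. For the other short structured RNAs it was 0.29 to 0.35, 0.41 to 0.73 and -0.18 to 0.19. Both classes lay above the control arrays on every knockdown array, at a smaller distance than the members in the MELK siRNA arrays. Their part in the members' signal, and that of the amplification, was not tested.

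**Figure D3:**
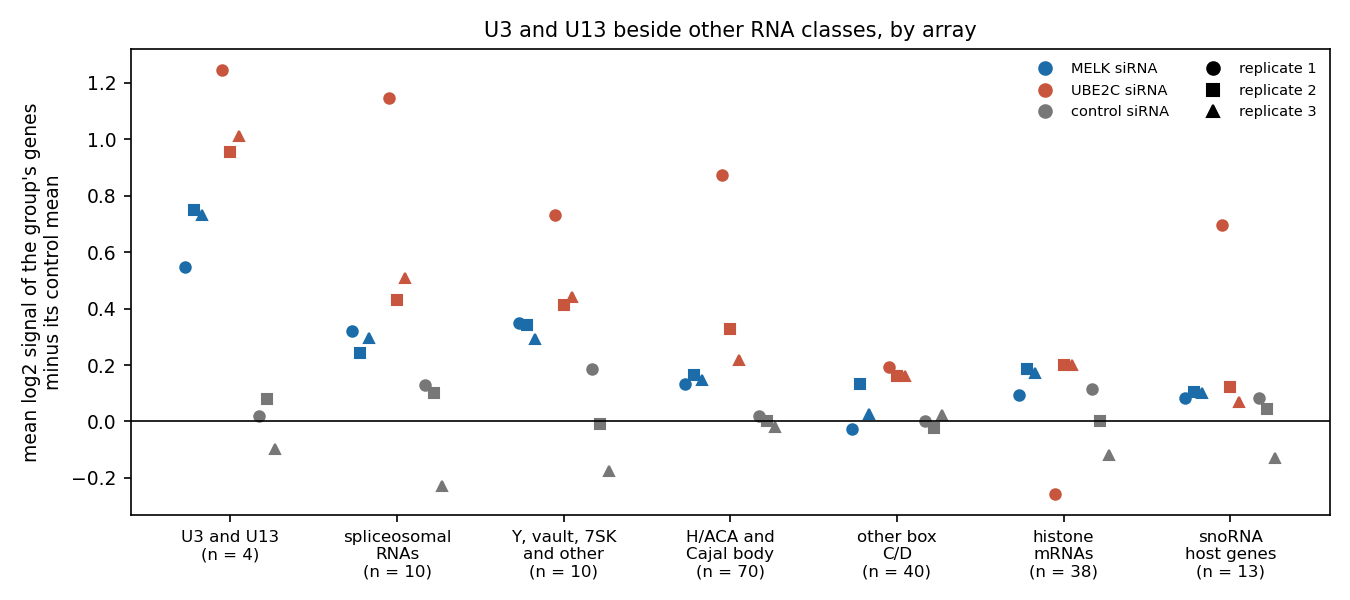
Mean log2 signal of the members and of 6 other RNA classes on each array, minus the class mean over the control arrays, with MELK siRNA, UBE2C siRNA and control siRNA from left to right in each class; symbols mark the replicates and n is the number of genes. The members reach 0.55 to 0.75 with MELK siRNA and 0.96 to 1.24 with UBE2C siRNA, and UBE2C siRNA replicate 1 is the highest array for the spliceosomal RNAs (1.15).

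These class calls depended on single arrays and on the scaling. Of the 181 genes in the 6 classes, 5 were called with MELK siRNA and 11 with UBE2C siRNA. Without MELK siRNA replicate 2 the count with MELK siRNA was 0, it was 2 (RNY1 and SNORA80E) without MELK siRNA replicate 3, UBE2C siRNA replicate 2 or UBE2C siRNA replicate 3, and 3 without control replicate 2. With UBE2C siRNA, 0 were called without either remaining UBE2C siRNA array, and 6 without MELK siRNA replicate 2 or control replicate 2. Under median scaling in place of quantile normalization, 3 were called with MELK siRNA and 1 with UBE2C siRNA. With 9 arrays none was called. The medians with UBE2C siRNA were then higher for the spliceosomal RNAs (0.80), the other short structured RNAs (0.75), the H/ACA RNAs (0.46) and the snoRNA host genes (0.28). They were lower for the other box C/D snoRNAs (0.08) and the histone mRNAs (0.06).

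The genes that make, trim, carry or work with U3, U8 and U13 were taken from 7 lists of 188 genes, of which 177 were tested. With MELK siRNA 7 rose and 6 fell (7.34% of the 177), with a median of 0.02. With UBE2C siRNA 3 rose and 5 fell (4.52%), also with a median of 0.02. Over all genes 2.29% rose and 3.22% fell with MELK siRNA, and 1.68% rose and 2.78% fell with UBE2C siRNA, so both shares of the pathway genes are near those of all genes. Between the knockdowns 0 of the 177 were called, with 9 at an unadjusted p under 0.05 in limma. With 9 arrays 0 were called in any comparison (over all genes 0 for MELK siRNA, 0.00875% for UBE2C siRNA and 0.00875% between the knockdowns), with 10 and 23 at an unadjusted p under 0.05 for MELK and UBE2C siRNA.

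Of the 5 U3 core proteins, 1 fell with MELK siRNA, and 0 were called with UBE2C siRNA, with 1 at an unadjusted p under 0.05 in limma. NOP56, a core protein of all box C/D particles, fell by 0.52 with MELK siRNA (SE 0.12, limma adjusted p = 0.0196). Its log2 signals were 11.71, 11.41 and 11.25 with MELK siRNA, 11.59 and 11.53 with UBE2C siRNA, and 11.75, 12.19 and 12.00 with control siRNA. Its difference with UBE2C siRNA was -0.42 (limma adjusted p = 0.0765, -0.51 with 9 arrays), and the other NOP56 probes gave -0.20 and -0.42 with MELK siRNA. The methyltransferase FBL differed by 0.12 with MELK siRNA and 0.13 with UBE2C siRNA, NOP58 by -0.10 and -0.15, and SNU13 by -0.01 and -0.10. RRP9, the protein specific to U3, differed by 0.13 and 0.19, and leaving out 1 array at a time gave -0.11 to 0.34 and -0.23 to 0.61. With UBE2C siRNA over 9 arrays the differences were 0.36 for FBL, -0.04 for NOP58, 0.17 for SNU13 and -1.05 for RRP9, so the sign turned for SNU13 and RRP9. None of these 4 was called. RRP9 was above background on 2 of 3 UBE2C siRNA arrays. On UBE2C siRNA replicate 1 it read 101 signal units, where background was also 101. The 16 genes for assembly, cap formation and transport of the particles had medians of 0.02 and 0.07, and 0 were called in either knockdown, with 1 and 2 at an unadjusted p under 0.05 in limma.

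In the small subunit processome, the assembly U3 works in, 3 of 52 genes rose and 1 fell with MELK siRNA, and 1 rose with UBE2C siRNA. DCAF13, a component of the processome, rose by 0.60 with MELK siRNA (SE 0.12, limma adjusted p = 0.0103) and by 0.54 with UBE2C siRNA (SE 0.13, adjusted p = 0.0352, 0.74 with 9 arrays). EMG1, which methylates a modified base of 18S rRNA, rose by 0.47 with MELK siRNA (limma adjusted p = 0.0103), and HEATR1, which also acts in rRNA transcription, by 0.39 (adjusted p = 0.0183). UTP23 fell by 0.44 with MELK siRNA (limma adjusted p = 0.0350), while its other probe gave 0.31. NAT10, the acetyltransferase that U13 guides, was outside the naming rule and was looked at for its role. It differed by -0.17 with MELK siRNA (limma adjusted p = 0.458) and by -0.44 with UBE2C siRNA (limma adjusted p = 0.0787, and -0.20 with 9 arrays).

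In large subunit processing, 2 of 35 genes fell in each knockdown and none rose. NOP53, a nucleolar protein of large subunit assembly, fell by 0.37 with MELK siRNA (limma adjusted p = 0.0231) and by 0.39 with UBE2C siRNA (adjusted p = 0.0353), where the 9-array change was -0.23. The helicase DDX27 fell by 0.49 with MELK siRNA (limma adjusted p = 0.0377), and RSL1D1, another nucleolar protein, by 0.43 with UBE2C siRNA (adjusted p = 0.0246), where the 9-array change was -0.99.

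Among the 30 factors of snRNA-type promoters and 3′ ends, INTS1, the scaffold of the Integrator complex that cuts the 3′ ends of snRNAs, fell in both knockdowns. The change was -0.73 with MELK siRNA (SE 0.09, limma adjusted p = 0.00126) and -0.58 with UBE2C siRNA (SE 0.11, adjusted p = 0.0122). Its log2 signals were 9.13, 9.19 and 9.24 with MELK siRNA, 9.34 and 9.33 with UBE2C siRNA, and 9.88, 10.00 and 9.86 with control siRNA. UBE2C siRNA replicate 1, at 10.10, lay above the controls, and over 9 arrays the change with UBE2C siRNA was -0.32. With UBE2C siRNA the general transcription factor subunits GTF2E1 rose by 0.65 (limma adjusted p = 0.0341, 0.01 with 9 arrays) and GTF2F1 fell by 0.48 (adjusted p = 0.0331, -0.61 with 9 arrays).

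Of 15 RNA polymerase I genes, which make the rRNA precursor, UBTF fell in both knockdowns. This activator changed by -0.54 with MELK siRNA (SE 0.14, limma adjusted p = 0.0315) and by -0.72 with UBE2C siRNA (SE 0.15, adjusted p = 0.0188). Over 9 arrays the change with UBE2C siRNA was -1.42, with UBE2C siRNA replicate 1 at a log2 signal of 5.46 and the other UBE2C siRNA arrays at 7.52 and 7.62. The other UBTF probe gave -0.59 with MELK siRNA and -0.39 with UBE2C siRNA. The polymerase I subunits POLR1F and POLR1H rose with MELK siRNA, by 0.47 (limma adjusted p = 0.0174) and 0.42 (adjusted p = 0.0152). The other POLR1H probes gave 0.29 and 0.15. TAF1A, of the promoter selectivity factor, rose by 0.56 with UBE2C siRNA (limma adjusted p = 0.0369), while its other probe gave -0.05 and the 9 arrays -0.33. In nuclear RNA trimming and decay, RBM7 of the nuclear exosome targeting complex rose by 0.38 with MELK siRNA (limma adjusted p = 0.0477) and the exosome subunit EXOSC1 by 0.27 (adjusted p = 0.0484). Both calls were lost whichever 1 of the 8 arrays was left out. With UBE2C siRNA 0 of 24 were called, with 7 at an unadjusted p under 0.05 in limma, beside 22.7% of all genes.

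**Figure D4:**
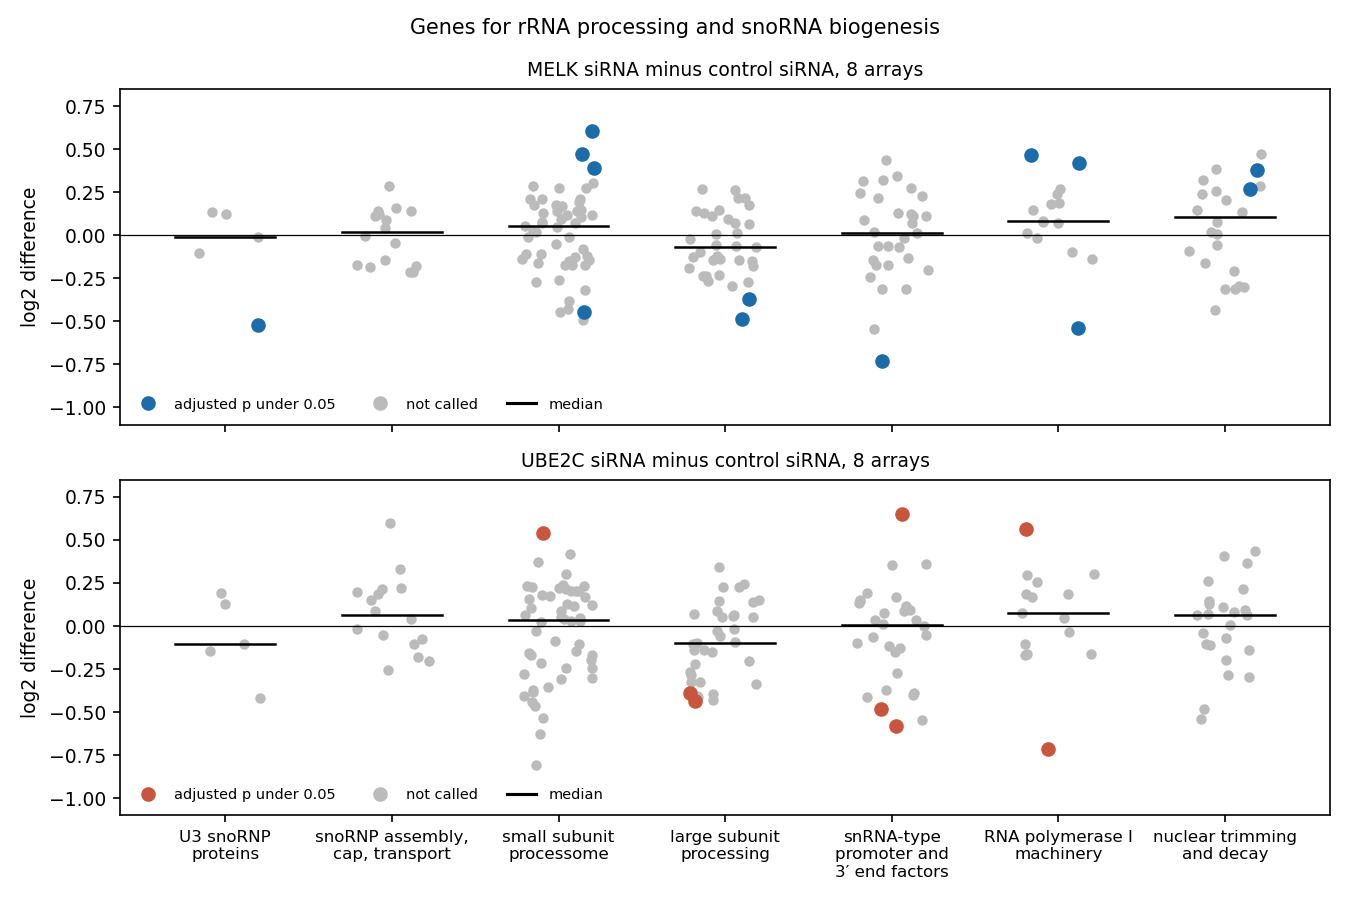
Log2 difference from control of the tested genes in 7 lists of rRNA-processing and snoRNA-biogenesis genes over 8 arrays, MELK siRNA in the upper panel and UBE2C siRNA in the lower; coloured points are genes called in limma, grey points are not called, and lines are list medians. The medians lie between -0.10 and 0.10, and the genes called lie on both sides of 0.

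The pathway calls also depended on single arrays. With MELK siRNA the 13 calls became 2 without MELK siRNA replicate 2 (EMG1 and INTS1) or replicate 3 (DCAF13 and INTS1), 8 without UBE2C siRNA replicate 2 or 3, and 5 without control replicate 2. With UBE2C siRNA the 8 calls became 0 without either remaining UBE2C siRNA array, 1 without control replicate 2 (INTS1), 4 without MELK siRNA replicate 2, and 13 without MELK siRNA replicate 1 or control replicate 3.

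The genes most like the members in pattern were found by the root-mean-square difference between each gene's centred log2 values and the members' mean profile over 8 arrays. Over 11424 other genes its median was 0.460, and a gene with the same value on every array would have 0.411. For the members themselves it was 0.10 to 0.18, from which nothing is read, since the profile is their own mean. The 6 closest were the H/ACA RNA SNORA80A (0.135), the exocyst subunit EXOC5 (0.136), the site-2 protease MBTPS2 (0.151), the vault RNA VTRNA1-1 (0.151), SNORA80E (0.152) and RCBTB2 (0.156). Their differences over 9 arrays were 0.192, 0.157, 0.247, 0.198, 0.355 and 0.162 in that order. Of the 6, 3 were short RNAs without poly(A) tails and 3 were mRNAs. EXOC5 had log2 signals of 7.01, 6.93 and 7.10 with MELK siRNA, 7.37, 7.30 and 7.43 with UBE2C siRNA, and 6.36, 6.52 and 6.60 with control siRNA. Its order of groups is that of the members, which follows from its being picked for closeness to them.

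**Figure D5:**
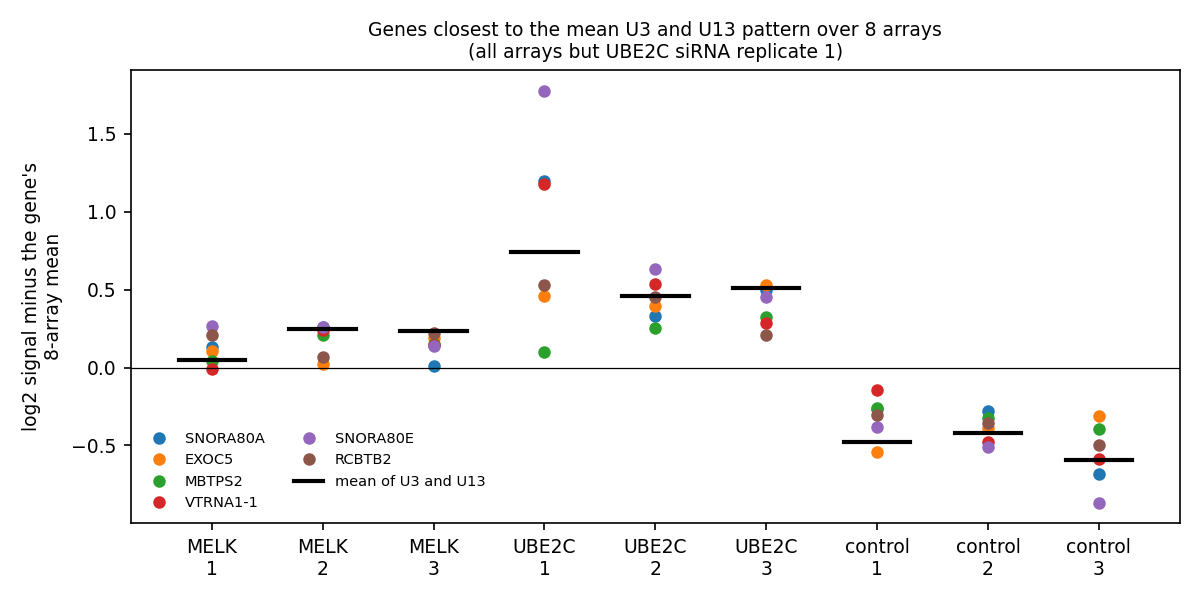
Log2 signal minus the gene's mean over 8 arrays, on each array, for the 6 genes closest to the members (points) and for the mean of the 4 members (black lines); MELK siRNA arrays are on the left, UBE2C siRNA in the middle and control siRNA on the right. SNORA80E departs most from the members on UBE2C siRNA replicate 1, and its difference over 9 arrays is 0.355.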

How the data were processed

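Deposited signals are bead intensity values per probe, which the authors left unscaled, each with a detection p-value, per the file headers. The authors' processed table holds log2 signals that share one set of quantiles (median 6.78 on each array) and carry no background correction, as a comparison with the deposited intensities showed. The submitters' processing notes name lumi. How detection p was computed, and the array annotation's build, are not given in the sources used here.

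Intensities were corrected and quantile-normalized with neqc (limma 3.58.1, R 4.3.3, offset 16). A detected probe had a detection p under 0.01 on the bright side of background, since 2428 to 3108 probes per array with so small a p lay below it. Probes detected on 3 or more arrays were kept. The brightest kept probe stood for a gene. Of 47323 probes, 30113 had 1 gene, 8 several and 17202 none listed, and 30074 matched RefSeq by gene number with 0 symbols changed.

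Group means were fitted with limma (trend, robust) to 8 arrays, and p-values were adjusted by Benjamini-Hochberg over 11428 genes (called when under 0.05). Members, lists, the 8-array fit and the naming rule (the 5 core proteins, and per list and comparison up to 3 called genes that rose most and 3 that fell most) were chosen with earlier results of these data known, counts of calls included. SNORA27 lies outside this rule and was named after its values were seen. The fit was tested on simulated data. Alternatives covered background, scaling, filter, probe choice, prior, arrays and a replicate term. No slide or scan date was used, so batches were not tested. At most 14 signals were identical between replicate arrays, and each array was counted as a sample of its own.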

Additional observations from a re-analysis of the deposited data

Results flagged for a closer look

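The knockdowns differed from each other in their own targets, which a test of that difference picked out. MELK was -0.90 on the log2 scale with MELK siRNA minus UBE2C siRNA (limma, adjusted p = 0.000361), and UBE2C was 1.25 (limma, adjusted p = 8.61e-08). No other gene, and none of the members, was picked out in this comparison.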

How the results depend on the processing

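No difference of a member changed sign under any alternative run. Without background correction, and in the authors' values, the member median was 0.47 for MELK siRNA and 0.73 for UBE2C siRNA, against 0.68 and 1.04. Between the knockdowns it was -0.34 with 9 arrays, with or without the trend, against -0.25. Leaving out 1 array at a time gave 0.61 to 0.76, 0.98 to 1.07 and -0.29 to -0.18 for the 3 medians.

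Counts of calls moved far more. For MELK siRNA, against 630 genes and 13 pathway genes, median scaling gave 157 and 5 (133 genes higher and 24 lower, against 262 and 368), no filter 286 and 8, detection p alone 174 and 5, 9 arrays 0 and 0 with or without the trend (limma, 616 genes at an unadjusted p under 0.05 without it), array weights 129 and 2, 8 arrays without the trend 1 and 0, the 2 groups alone 356 and 8, and leaving out 1 array 79 to 698 and 2 to 16. For UBE2C siRNA, against 510 and 8, median scaling gave 9 and 0 (7 higher and 2 lower, against 192 and 318), no filter 210 and 2, detection p alone 4 and 0, 9 arrays 1 and 0 with or without the trend (limma, 1274 at an unadjusted p under 0.05 without it), 8 arrays without the trend 1 and 0, and leaving out 1 array 2 to 760 and 0 to 13. Between the knockdowns, against 2 genes, median scaling, 9 arrays with or without the trend, 8 arrays without the trend and the mean of a gene's probes each gave 1, array weights 6, and leaving out 1 array 1 to 3, with 0 pathway genes in every alternative. Every fit without the trend, and the fit with array weights, was also without the robust option. The parts of both options in these counts therefore cannot be told apart. The causes were not tested. Under median scaling the medians of the U3 core proteins and the large subunit list with MELK siRNA were 0.15 and 0.06, against -0.01 and -0.07.

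A replicate block gave 337 genes and 4 pathway genes for UBE2C siRNA, against 510 and 8, and moved no other count by over 1.5 times. After each gene's group mean was taken off, same-numbered arrays of different groups correlated at -0.125 to 0.246 and other pairs at -0.245 to 0.228. Not every array correlated best with its own number. The ranges overlap, so they do not settle whether same-numbered samples share more than a number. Leaving out a further UBE2C siRNA array leaves 1, assumed to vary like the other groups. The number of arrays limits these counts, and SNORD3C is limited by its nearness to background.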

Other observations

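The ratio of U13 to U3 within an array, looked at after the values were seen, is given as the SNORD13 log2 signal minus the mean of the 3 U3 probes. It was 1.65, 1.83 and 1.67 with MELK siRNA (1.71 ± 0.10, SD, n = 3), 2.34, 2.12 and 2.03 with UBE2C siRNA (2.16 ± 0.16, SD, n = 3), and 2.08, 1.72 and 1.83 with control siRNA (1.88 ± 0.18, SD, n = 3). The MELK siRNA and UBE2C siRNA arrays did not overlap, and the control arrays overlapped both groups. The difference of MELK siRNA minus UBE2C siRNA was -0.45 (two-sided exact permutation test, p = 0.1, the smallest that 3 arrays against 3 allow). Since the probes differ, the level of this value carries no meaning, only its differences between arrays do.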
